A study of Mus musculus with 16 samples.

Results

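Cell division genes are described here as 39 mouse genes taken by symbol from the 55426 genes of the deposited tables, each of which matched 1 row. Of these, 17 encode proteins that license, start or supply DNA replication (Cdc45, Cdc6, Cdt1, Mcm2 to Mcm7, Pcna, Rrm1, Rrm2, Tyms, E2f1, Ccne1, Ccne2 and Cdk2). The other 22 encode proteins that act in mitosis or switch on the genes for it (Mki67, Top2a, Cdk1, Ccna2, Ccnb1, Ccnb2, Cdc20, Aurka, Aurkb, Bub1, Bub1b, Plk1, Birc5, Kif11, Kif20a, Cenpe, Cenpf, Nusap1, Tpx2, Ube2c, Foxm1 and Mybl2). The question was whether their RNA in the ovary differed under testosterone, after its withdrawal, and between oil-injected mice of 2 ages.

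Ovaries came from 16 female C57BL/6NHsd mice, an inbred strain, with 1 ovary and 1 poly(A) RNA library per mouse and 4 mice per group. The On T group had been injected under the skin each week with 0.9 mg of testosterone enanthate, a long-acting ester, starting at 9 to 10 weeks of age, and was examined after 6 weeks at an age of 16 weeks. The Post T group belonged to another cohort, in which the same 6 weeks of injections ended, estrous cycles came back, and 4 of them passed before collection at 24 to 28 weeks. Each treated group had its own age-matched controls, Control for On T and Control for Post T, which received the sesame oil alone. All ovaries were taken in diestrus. The RNA is that of the whole organ, so that for every value below fewer dividing cells and less RNA per cell cannot be told apart. Library totals were 26598055 to 52659637 counts, and the lowest count of any of the 39 genes in any library was 132, for Ccne1. Oocyte-derived Gdf9 was found at 36.1 to 85.2 CPM (counts scaled to library size) and granulosa cell-derived Amh at 168.8 to 479 CPM over the 16 libraries.

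A cell copies its DNA once per division. The origin licensing factors Cdc6 and Cdt1 load the MCM helicase, cyclin E with Cdk2 and Cdc45 help to start the forks, Pcna clamps the polymerases to the template, and ribonucleotide reductase (Rrm1, Rrm2) and thymidylate synthase (Tyms) supply nucleotides. Genes of this phase are classic targets of E2F factors. Genes of mitosis are turned on later by Mybl2 and Foxm1 together with the MuvB complex, which binds an element named CHR, and many of their promoters also hold CCAAT boxes. In the adult ovary the granulosa cells of growing follicles are the main dividing population, while oocytes are held in meiosis.

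Promoter letters are shown here because replication and mitosis genes are described apart below, and because the elements named above are the known basis of that division. RefSeq promoter entries on GRCm38.p6 matched 32 of the 39 genes, 15 of replication and 17 of mitosis. In the 250 bases before each start, on both strands, the E2F letters TTCCCGC or TTGGCGC were found for 6 of 15 replication genes (40.0%) and 3 of 17 mitosis genes (17.6%), against 5.62% of all 32851 promoters in the table. The CHR letters TTTGAA or TTCGAA were found for 3 of 15 (20%) and 8 of 17 (47.1%), against 17.1% of all promoters. CCAAT was found for 10 of 15 (66.7%) and 14 of 17 (82.4%), against 33.8%. None of the 3 motifs contains another, although a CCAAT box read on the other strand (ATTGG) can overlap TTGGCGC. A match is a run of letters and not a shown binding site. Starts are those of the RefSeq entries, and the counts include windows that lay inside the annotated span of the gene. This held for E2f1, without E2F letters, and for Cdc6 and Mcm7, which are among the 6 with them. Other windows overlapped that span in part, as for Pcna and Ccnb1. The 5 examples below run 5′ to 3′ on the strand of the gene, with matches to the E2F or CHR letters in capitals, and were chosen after the search, among promoters clear of annotated exons, as replication genes with E2F letters (Mcm5, Mcm6) and mitosis genes with CHR letters (Top2a, Kif11, Mki67).
Mcm5, chr8:75109259-75109508, plus strand: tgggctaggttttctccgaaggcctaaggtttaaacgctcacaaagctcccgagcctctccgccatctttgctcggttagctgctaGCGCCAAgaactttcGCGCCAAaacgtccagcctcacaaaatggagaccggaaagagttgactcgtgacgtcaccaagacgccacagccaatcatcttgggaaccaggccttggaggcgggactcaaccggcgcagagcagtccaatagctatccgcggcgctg
Mcm6, chr1:128359706-128359955, minus strand: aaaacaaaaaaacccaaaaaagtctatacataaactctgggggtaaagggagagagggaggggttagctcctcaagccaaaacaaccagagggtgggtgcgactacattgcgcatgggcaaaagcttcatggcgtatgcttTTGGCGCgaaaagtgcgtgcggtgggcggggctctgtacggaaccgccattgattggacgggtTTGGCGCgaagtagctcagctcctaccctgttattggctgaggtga
Top2a, chr11:99024190-99024439, minus strand: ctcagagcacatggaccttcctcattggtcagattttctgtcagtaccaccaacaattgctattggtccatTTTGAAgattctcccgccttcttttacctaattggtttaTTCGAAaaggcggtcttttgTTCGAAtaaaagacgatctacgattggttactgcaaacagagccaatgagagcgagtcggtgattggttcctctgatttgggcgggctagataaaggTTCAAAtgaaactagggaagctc
Kif11, chr19:37376132-37376381, plus strand: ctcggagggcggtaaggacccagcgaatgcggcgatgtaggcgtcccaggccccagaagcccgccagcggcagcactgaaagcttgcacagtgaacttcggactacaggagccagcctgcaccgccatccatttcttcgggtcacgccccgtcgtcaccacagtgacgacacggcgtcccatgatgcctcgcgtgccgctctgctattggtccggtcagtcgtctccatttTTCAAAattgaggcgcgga
Mki67, chr7:135716380-135716629, minus strand: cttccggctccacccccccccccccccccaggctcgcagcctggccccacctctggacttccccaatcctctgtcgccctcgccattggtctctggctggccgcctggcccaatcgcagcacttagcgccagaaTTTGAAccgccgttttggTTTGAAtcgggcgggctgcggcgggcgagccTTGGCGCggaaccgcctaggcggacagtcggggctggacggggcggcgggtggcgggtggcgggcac
Both capital runs of Mcm5 and of Mcm6 are E2F letters. Top2a holds 4 runs of CHR letters and Kif11 holds 1. The Mki67 promoter holds both kinds, with 2 CHR runs followed by 1 E2F run.

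Levels of different genes were compared in the deposited TPM values, which scale counts by gene length as well as library size. Pcna, the sliding clamp of the replication fork, stood highest among the 39 genes with a mean of 116 TPM over the 16 libraries (88.02 to 159). It was followed by Cdk1, the kinase that drives entry into mitosis (68.5 TPM), the helicase subunit Mcm7 (66.6 TPM), the ubiquitin-conjugating enzyme Ube2c of the anaphase-promoting complex (60.4 TPM) and topoisomerase Top2a (52.1 TPM). At the low end were cyclin E1 (Ccne1, 4.23 TPM) and the licensing factor Cdc6 (4.18 TPM). Genes of both classes thus stood near the top, and the 2 lowest were replication genes. Within the helicase the 6 subunits did not have equal RNA levels, from 19.7 TPM for Mcm4 to 66.6 TPM for Mcm7. The kinetochore proteins Cenpe and Cenpf were low, at 5.45 and 5.48 TPM.

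The genes varied together from library to library, and a single animal often set a group's high or low end. On T replicate 3 was the highest of its group for 39 of 39 genes, and On T replicate 2 the lowest for 34. Among the older controls, replicate 1 was the highest for 36 genes and replicate 2 the lowest for 31. Replicate 1 was the lowest of the younger controls for 33 genes, and Post T replicate 1 the highest of its group for 28. Older control replicate 1 came from a mouse of 24 weeks and had the lowest total of the 16 libraries (26598055 counts). The other older controls were 26 to 28 weeks old. Post T replicate 4, also of 24 weeks, was the highest of its group for 5 genes. The part of age within a group or of library total was not tested. Over the 17 replication genes, the mean deviation from each gene's average over all libraries was 0.64 on the log2 scale in On T replicate 3 and -0.23 in On T replicate 2, and over the 22 mitosis genes it was 0.73 and -0.12.

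**Figure D1:**
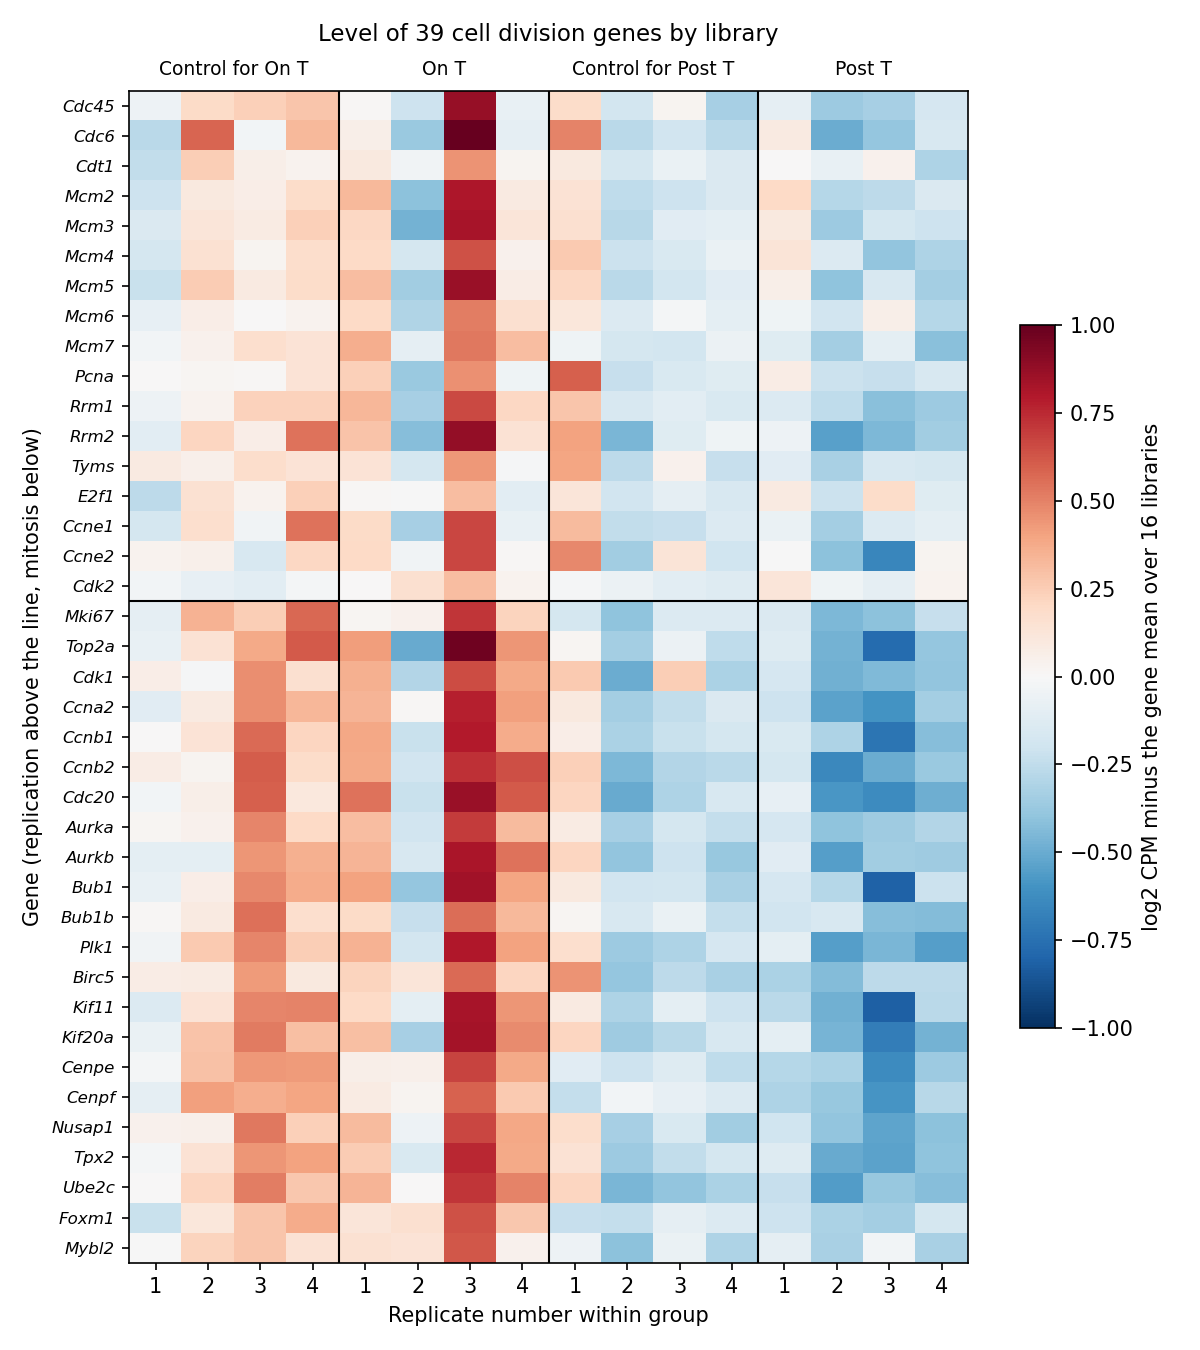
Level of each of the 39 genes in each of the 16 libraries as log2 CPM minus the gene's mean over all libraries, colours running from -1 (blue) to 1 (red), with replication genes above the horizontal line, mitosis genes below, and columns grouped by treatment and ordered by replicate number. On T replicate 3 is red for every gene. Every mitosis gene lies below 0 in every Post T library, though some values are near 0, as for Mybl2 in replicate 3 (-0.029).

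Granulosa cell markers had their ends in the same libraries on testosterone, but not in every group. A list of 14 of them, which includes Fshr, Inha and Cyp19a1, was highest in On T replicate 3 for 11 genes and lowest in On T replicate 2 for 14. Its mean deviation was 0.78 in the former and -0.92 in the latter on the log2 scale. Among the Post T libraries replicate 1 was highest for 12 of the 14 markers. In the older controls replicate 1 was highest for 7 and replicate 2 lowest for 5. In the younger controls replicate 1 was lowest for 3 and replicate 2 for 8. None of the 14 markers was at 0 in any library, and their summed level ranged over 7565 to 11550 CPM in the younger controls, 4358 to 14510 CPM on testosterone, 6478 to 7603 CPM in the older controls and 6120 to 11280 CPM after testosterone. Markers of surface epithelium were low in On T replicates 2 and 4, with mean deviations of -2.17 and -1.24. Other lists also had an end in On T replicates 2 or 3. Smooth muscle markers were highest in replicate 2 for 8 of 8, endothelial markers for 9 of 10 and macrophage markers for 8 of 12, and macrophage markers were lowest in replicate 3 for 12 of 12. The part of these cell markers in the results below was not tested.

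**Figure D2:**
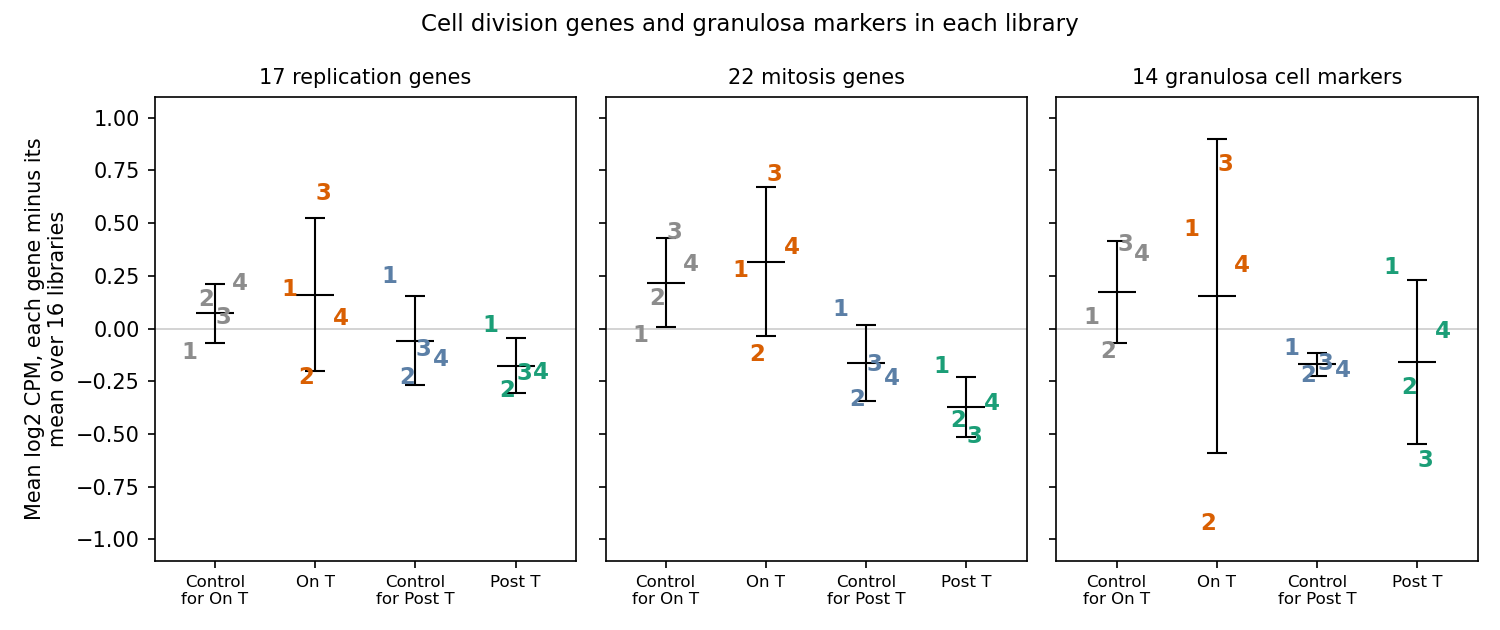
Mean of log2 CPM over the 17 replication genes, the 22 mitosis genes and the 14 granulosa cell markers in each library, each gene taken as its deviation from its mean over 16 libraries; digits are replicate numbers, long ticks are group means and bars span 1 SD either side (n = 4). On T replicates 2 and 3 mark the ends of their group in all 3 panels. The group means of the mitosis genes lie lower in the older groups than in the younger ones, while single libraries overlap.

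On testosterone, no change of a replication gene passed the test. None of the 17 was called by edgeR's quasi-likelihood F test at an adjusted p under 0.05, nor by DESeq2 or limma, against 9.27% of the 18833 genes tested in this comparison. Their log2 fold changes were all above 0 but small, from 0.0017 for Tyms to 0.23 for Mcm2 with a median of 0.14, where 49.1% of all genes lay above 0 and the median of all genes was -0.0052. The ranges of the groups overlapped for 16 of the 17, and 1 gene lay wholly higher on testosterone, against 7.22% of all genes.
Mcm2, a helicase subunit, was at 81.6, 48.9, 114 and 69.2 CPM in On T replicates 1 to 4 and at 56.5, 69.8, 68.1 and 73.9 CPM in the controls. The On T range enclosed that of the controls, and the log2 fold change was 0.23 ± 0.19 (SE; adjusted p = 0.533). For the clamp Pcna the values were 129.6, 85.1, 151 and 107 CPM on testosterone and 110.4, 112, 111 and 121 CPM in controls (0.057 ± 0.18, adjusted p = 0.890). Both genes thus had their highest and lowest values within the treated group.
E2f1, the factor that turns on many of these genes, was at 17.4, 17.2, 21.3 and 15.97 CPM against 14.3, 19.1, 17.7 and 20.3 CPM, a log2 fold change of 0.0084 ± 0.13 (adjusted p = 0.980).
Cdk2, the kinase partner of cyclin E, was the gene with no overlap, at 42.3, 47.04, 52.1 and 43.3 CPM against 41.4, 39.8, 39.2 and 41.6 CPM. Its log2 fold change was 0.19 ± 0.076 with an interval of 0.030 to 0.35, and it had the lowest p of the 39 genes (unadjusted p = 0.0230, adjusted p = 0.142). It was also the 1 member with an unadjusted p under 0.05, against 22.3% of all genes.
Mcm7 came next, at 128, 93.3, 143 and 123 CPM against 97.4, 102, 111 and 109 CPM (0.22 ± 0.11, adjusted p = 0.268). Of its treated libraries 3 lay above every control, and replicate 2 lay below them all. With that replicate left out its log2 fold change was 0.32 with an adjusted p of 0.0378, the only call of any of the 39 genes in any of the 4 comparisons under any alternative run.

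The mitosis genes gave a like picture on testosterone. Again 0 of 22 were called by edgeR, DESeq2 or limma, 0 had an unadjusted p under 0.05, and the groups overlapped for all 22. The fold changes lay above 0 for 20 of 22, with a median of 0.13 and a range from -0.026 for Cenpf to 0.30 for Cdc20, the activator of the anaphase-promoting complex.
Mki67, the gene of the Ki-67 proliferation antigen, was at 98.7, 100.4, 159.8 and 114 CPM on testosterone and 91.7, 124, 115 and 145 CPM in controls, with a log2 fold change of -0.0098 ± 0.15 (adjusted p = 0.980). Top2a, which untangles sister DNA, was at 169.5, 89.7, 249 and 173 CPM against 121, 141, 166 and 194 CPM (0.13 ± 0.23, adjusted p = 0.780). For both, On T replicate 3 exceeded every control. Replicate 2 lay below every control for Top2a but inside the control range for Mki67.
Cdk1 was at 51.1, 32.7, 62.8 and 52.2 CPM against 41.97, 39.8, 55.4 and 44.8 CPM (0.13 ± 0.19, adjusted p = 0.746). Its partners cyclin A2 (Ccna2) and cyclin B1 (Ccnb1) had log2 fold changes of 0.20 ± 0.15 and 0.13 ± 0.18, from 75.4, 59.9, 102 and 79.3 CPM against 55.2, 63.4, 82.3 and 74.8 CPM for the first. Ccnb1 was at 57.5, 37.7, 76.3 and 56.8 CPM against 44, 48.4, 65.1 and 51.01 CPM. In all 3, replicate 2 was the lowest treated library and replicate 3 the highest of the 8.
Foxm1, the transcription factor of the mitotic program, was at 28.9, 29.7, 41.3 and 31.97 CPM against 22.8, 28.8, 32.2 and 34.4 CPM (0.16 ± 0.13, adjusted p = 0.505).

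The precision bounds what could have been missed. The 95% intervals of all 39 genes in this comparison lay within 1 on the log2 scale either side of 0, with extremes of -0.51 and 0.74. The direction depended on which On T libraries were kept. Without On T replicate 3, the fold change turned negative for 23 of the 39 genes. In that fit 5 of 17 replication and 9 of 22 mitosis genes were above 0, and the medians were -0.037 and -0.029. It kept On T replicate 2, the lowest of its group for 34 of the 39 genes. Without replicates 2 and 3 together, a choice made after seeing the data, the medians were 0.071 and 0.12.

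**Figure D3:**
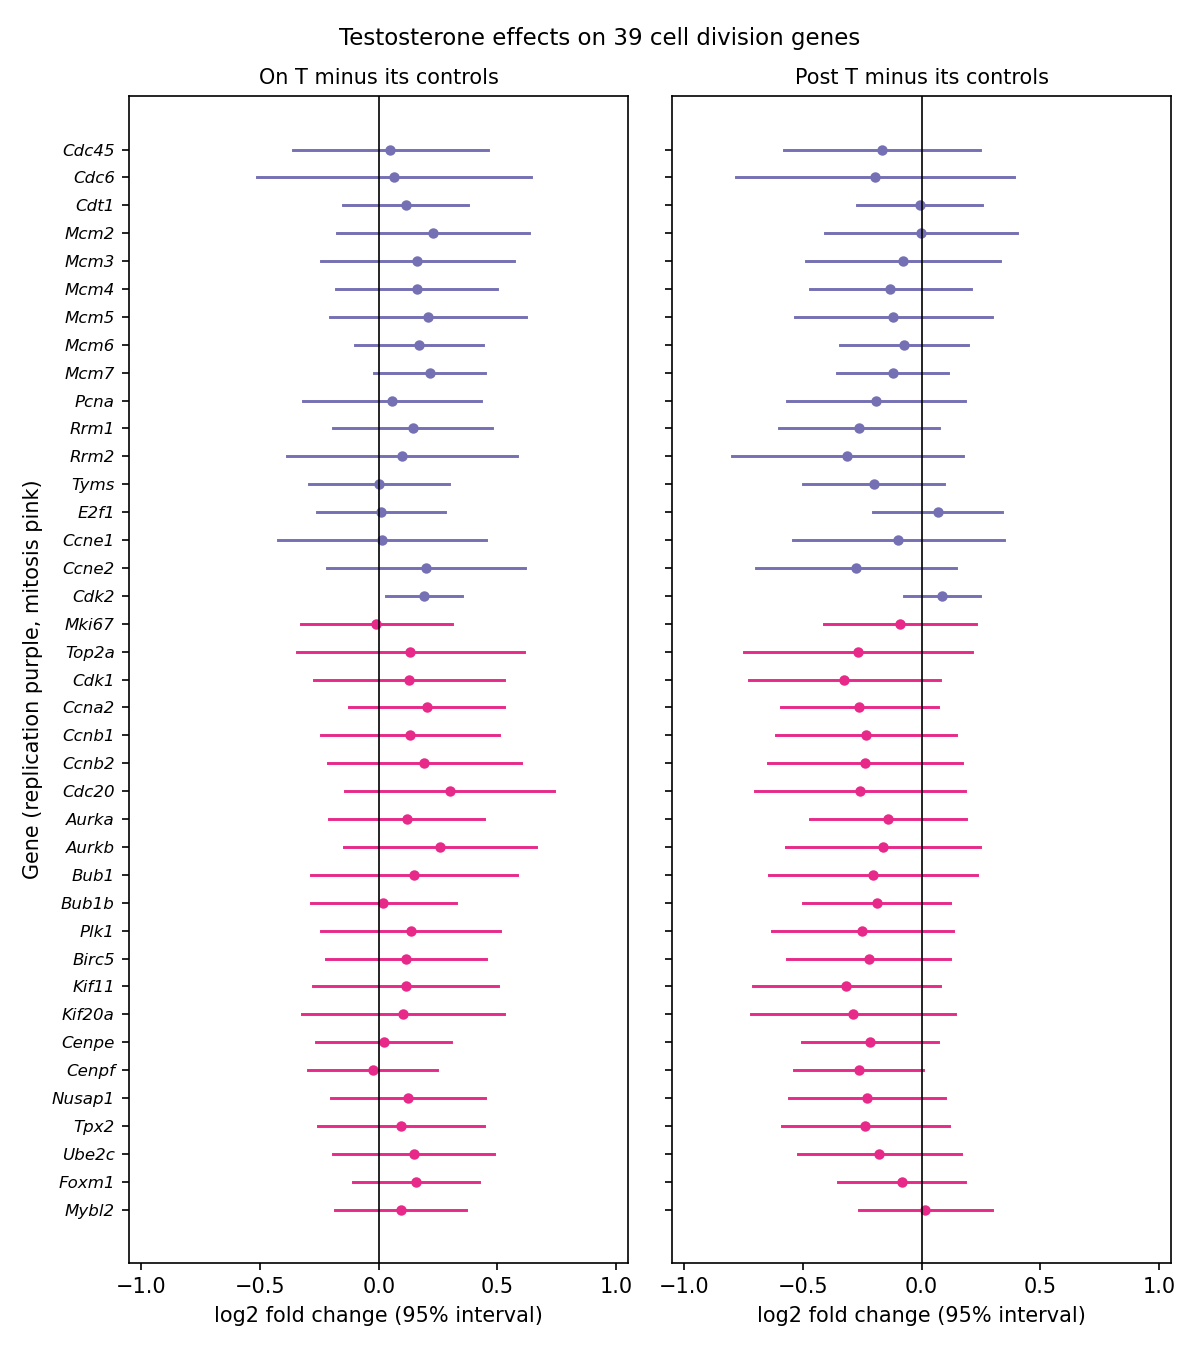
Log2 fold change (points) with 95% interval (lines) of each of the 39 genes for On T minus its controls, left, and Post T minus its controls, right, from edgeR's fit of 16 libraries (4 per group); replication genes are purple and mitosis genes pink. Points on the left lie mostly above 0 and points on the right mostly below, the intervals of 38 and 39 genes include 0, and all stay within 1 on the log2 scale.

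After testosterone was stopped, the replication genes again passed no test. None of 17 was called by edgeR, DESeq2 or limma, where 12.3% of all genes were called in this comparison, and none had an unadjusted p under 0.05, against 22.9% of all genes. The fold changes were below 0 for 15 of 17, against 51.7% of all genes, with a median of -0.12 and a range from -0.31 for Rrm2 to 0.084 for Cdk2. The median of all genes was -0.010.
Pcna was at 116, 95.1, 93.7 and 98.3 CPM in Post T replicates 1 to 4 and at 167, 93.8, 98.97 and 101 CPM in the older controls, so that 1 control stood far above the other 7 libraries (-0.19 ± 0.18, adjusted p = 0.600). Mcm2 was at 74.9, 53.6, 54.2 and 58.8 CPM against 71.97, 54.7, 56.4 and 58.8 CPM, with no difference in the fit (-0.0016 ± 0.19, interval -0.41 to 0.40). In both genes the highest library of each group was its replicate 1.
Rrm2, the regulated subunit of ribonucleotide reductase, had the lowest fold change of the class, at 32.4, 22.9, 24.6 and 26.3 CPM against 44.3, 24.4, 30.9 and 32.5 CPM (-0.31 ± 0.23, adjusted p = 0.481). The groups overlapped for all 17 genes. E2f1 was at 18.3, 14.8, 19.5 and 15.8 CPM against 18.7, 15.1, 16.1 and 15.4 CPM (0.068 ± 0.13) and, with Cdk2 (0.084 ± 0.076), lay on the other side of 0 from the rest. Without older control replicate 1, 8 of the 17 stayed below 0 and the median was 0.0095.

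Among the mitosis genes 0 of 22 were called after testosterone by edgeR, DESeq2 or limma, and none had an unadjusted p under 0.05. Of the 22, 21 were below 0, with a median of -0.23 and a range from -0.33 for Cdk1 to 0.016 for Mybl2.
Cdk1 was at 35.7, 28.7, 29.5 and 30.5 CPM against 47.9, 28.5, 47.5 and 32.2 CPM (-0.33 ± 0.19, adjusted p = 0.348). Older control replicates 1 and 3 exceeded every Post T library, while replicate 2 lay below them all. Mki67 was at 88.2, 71.4, 73.5 and 83.2 CPM against 86, 73.7, 88.8 and 88.4 CPM (-0.090 ± 0.15, adjusted p = 0.801), and Top2a was at 116, 91.8, 74.7 and 97.3 CPM against 129, 100.3, 122 and 107 CPM (-0.27 ± 0.23, adjusted p = 0.558).
The cyclins overlapped too. Ccna2 was at 51.5, 40.99, 39.4 and 47.1 CPM against 63.8, 46.9, 50.3 and 53.9 CPM (-0.26 ± 0.16, adjusted p = 0.354) and Ccnb1 at 39.6, 35.5, 26.4 and 32.8 CPM against 46.1, 35.2, 37.7 and 38.98 CPM (-0.23 ± 0.18, adjusted p = 0.503). For Foxm1 the Post T values of 23.04, 21.3, 20.99 and 23.4 CPM and the control values of 22.6, 22.5, 24.9 and 24.1 CPM were close (-0.083 ± 0.13).
The groups did not overlap for 2 of the 22, both lower after testosterone, against 6.92% of all genes. A count this near the share of all genes is not read as a result about the class. Cenpe, the motor that carries chromosomes to the spindle equator, was at 23.8, 23.2, 18.8 and 22.5 CPM against 26.8, 25.1, 26.5 and 24.3 CPM (-0.22 ± 0.14, adjusted p = 0.386). Cenpf, of the outer kinetochore, was at 34.5, 32.99, 28.5 and 35.4 CPM against 36.3, 42.1, 40.5 and 39.1 CPM and had the lowest p of the comparison (-0.27 ± 0.13, interval -0.54 to 0.0072, unadjusted p = 0.0557, adjusted p = 0.234). Neither reached the threshold.
All 39 intervals in this comparison again lay within 1 on the log2 scale, with extremes of -0.80 and 0.40. Without older control replicate 1, 10 of the 39 fold changes turned sign and the median of the mitosis genes was -0.10.

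The effect after testosterone was compared with the effect on testosterone as a difference of fold changes, in which 3.25% of all genes were called. None of the 17 replication genes or the 22 mitosis genes was called by edgeR, DESeq2 or limma. The differences were below 0 for 16 of 17 with a median of -0.24 and for 22 of 22 with a median of -0.35, against 50.8% of all genes and a median of -0.0045. The largest was that of Cdc20, -0.56 ± 0.30 (adjusted p = 0.422). Mcm7 had the lowest p and the only unadjusted p under 0.05, against 14.3% of all genes (-0.34 ± 0.16, unadjusted p = 0.0460, adjusted p = 0.336). Intervals were wider here, and those of 32 of 39 genes lay within 1 on the log2 scale.

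Oil-injected mice of the 2 cohorts were also compared, older minus younger, where 0% of all genes were called by edgeR and 1892 had an unadjusted p under 0.05 (10%). DESeq2 called 179 genes in this comparison, none of them among the 39, and limma called none of the 39 either. Age and cohort cannot be told apart here. The 22 mitosis genes were all lower in the older controls, by a median of -0.39 on the log2 scale and from -0.50 for Mki67 to -0.22 for Cdk1, against 51.8% of all genes below 0 and a median of -0.0071. An unadjusted p under 0.05 was found for 15 of the 22, against 4.73% of all genes that were lower with such a p, but none passed after adjustment.
Mki67 was at 86, 73.7, 88.8 and 88.4 CPM in the older and 91.7, 124, 115 and 145 CPM in the younger controls, without overlap (-0.50 ± 0.15, interval -0.82 to -0.18, unadjusted p = 0.00453, adjusted p = 0.258). Cenpe, at 26.8, 25.1, 26.5 and 24.3 CPM against 28.6, 35.5, 39.3 and 38.9 CPM, had the lowest p of the members (-0.47 ± 0.13, unadjusted p = 0.00291, adjusted p = 0.248). Mybl2, which acts before Foxm1 in the mitotic program, was the third gene without overlap, at 17.1, 13.3, 16.9 and 14.2 CPM against 17.7, 20.6, 21.5 and 19.6 CPM (-0.37 ± 0.13, adjusted p = 0.330). Genes whose groups lay wholly lower made up 2.61% of all genes in this comparison.
Other members of the class overlapped by a library or more. Top2a, at 129, 100.3, 122 and 107 CPM against 121, 141, 166 and 194 CPM, differed by -0.44 ± 0.23 (adjusted p = 0.540), and Foxm1, at 22.6, 22.5, 24.9 and 24.1 CPM against 22.8, 28.8, 32.2 and 34.4 CPM, by -0.33 ± 0.13 (adjusted p = 0.380). The count of 15 ran from 4 to 19 when single libraries were left out, with 4 without older control replicate 2, 5 without younger control replicate 3, 6 without older control replicate 4, and 7 without younger control replicate 4 or older control replicate 3. All 22 fold changes stayed below 0 in each of these fits.

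Replication genes had a median nearer to 0 between the control groups, although no test compared the classes. Of the 17, 15 were lower in the older controls with a median of -0.14 and none had an unadjusted p under 0.05. When single libraries were left out, 14 to 17 of the 17 were lower and the median ran from -0.23 to -0.081. For the mitosis genes the median ran from -0.49 to -0.28 in these fits. Pcna was at 167, 93.8, 98.97 and 101 CPM in older and 110.4, 112, 111 and 121 CPM in younger controls (0.018 ± 0.18), and its highest library of all 16 was 1 of the older controls. Mcm7 was the 1 gene of the class with no overlap, at 96.3, 87.9, 87.5 and 95.6 CPM against 97.4, 102, 111 and 109 CPM (-0.19 ± 0.11, adjusted p = 0.589). E2f1 differed by -0.13 ± 0.13 (adjusted p = 0.775).
Markers of other cells moved between the same groups. Of 18 oocyte markers 18 were lower in the older controls (median -0.56, 15 with an unadjusted p under 0.05), with summed levels of 280.9 to 379 CPM against 320.1 to 730 CPM. Of 14 granulosa markers 13 were lower (median -0.37), while 10 of 10 endothelial markers were higher (median 0.22, summed levels of 541 to 608 CPM against 408 to 589 CPM). None of these was called, and their part in the values of the mitosis genes was not tested.

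**Figure D4:**
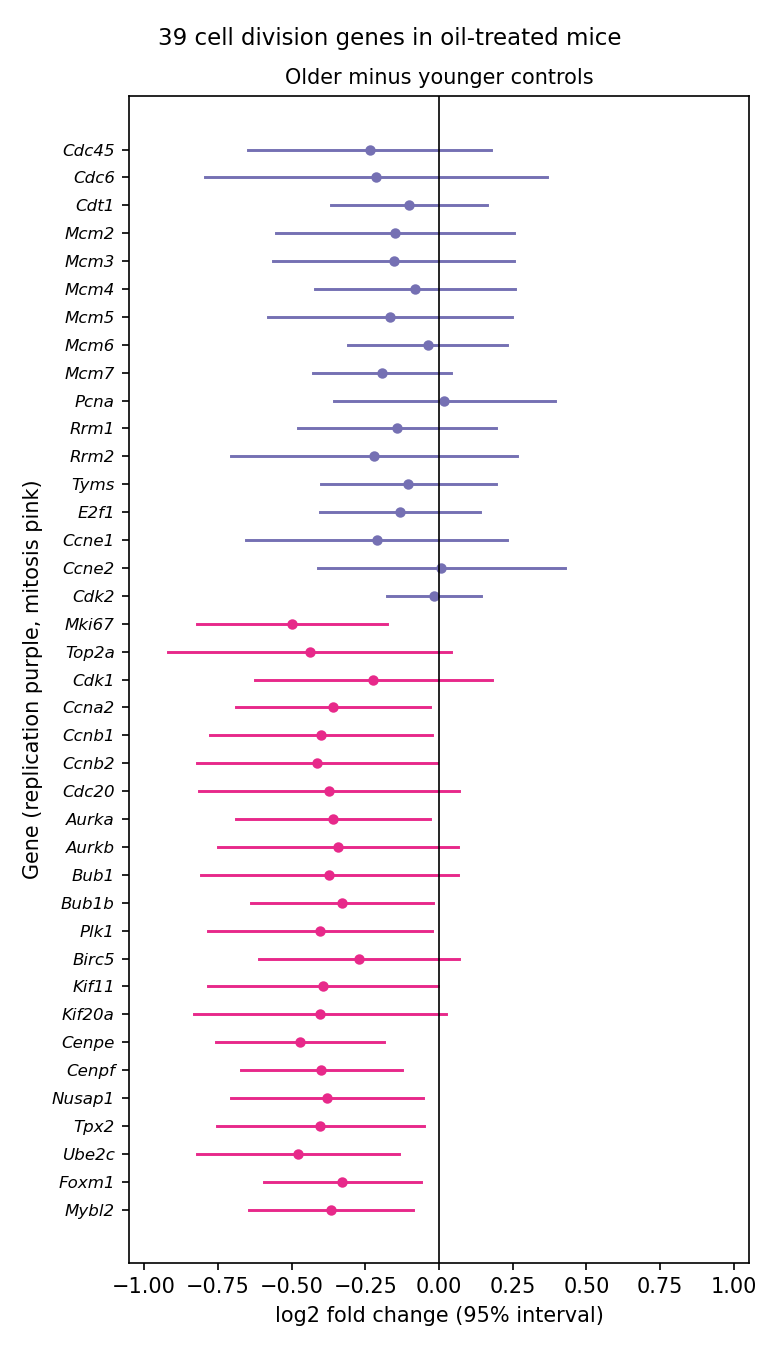
Log2 fold change (points) with 95% interval (lines) of each of the 39 genes for older minus younger oil-injected controls (4 libraries each, edgeR's fit of 16 libraries), replication genes in purple and mitosis genes in pink. All 22 mitosis points lie left of 0 and 15 of their intervals exclude 0 before adjustment, while all 17 replication intervals include 0.

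Taking the 4 groups side by side, the order of the mean levels was On T, its controls, the older controls, Post T from high to low for 32 of the 39 genes, 13 of 17 in replication and 19 of 22 in mitosis. Both younger means lay above both older means for 22 of 22 mitosis genes and 14 of 17 replication genes. None of the 39 genes was called between neighbours in this order. Between the younger and older controls 15 of the 22 mitosis genes had an unadjusted p under 0.05 by edgeR's test, against 4.73% of all genes lower with such a p. The lowest adjusted p among them was 0.248. The count ran from 4 to 19 when single libraries were left out. These genes vary together over the same libraries, so that their number is not separate evidence. For Top2a the means were 170.2 ± 65.1, 155 ± 31.8, 114 ± 13.2 and 95.05 ± 17.2 CPM (SD, n = 4), for Mki67 118 ± 28.6, 119 ± 21.9, 84.2 ± 7.12 and 79.1 ± 7.99 CPM, and for Mcm2 78.5 ± 27.4, 67.1 ± 7.45, 60.5 ± 7.85 and 60.4 ± 9.95 CPM. Mki67 was thus among those with the On T mean below that of its controls.
Levels of the mitosis genes relative to the replication genes of the same library did not overlap between the cohorts, whereas those of each class on its own did. The mean log2 deviation of the 22 minus that of the 17 was 0.0023 to 0.40 in the younger controls and 0.089 to 0.33 on testosterone. It was -0.16 to -0.070 in the older controls and -0.30 to -0.14 after testosterone. All 8 libraries of the younger cohort lay above all 8 of the older one. The treated and control ranges overlapped within each cohort. For 58 other mitosis genes minus 40 other replication genes the cohorts overlapped. Older control replicate 3, at 0.017, lay above 3 of the 8 younger libraries, namely On T replicates 1 and 2 (0.015 and -0.026) and younger control replicate 2 (0.0011). This contrast of classes was chosen after the values were seen, and it carries no test.

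**Figure D5:**
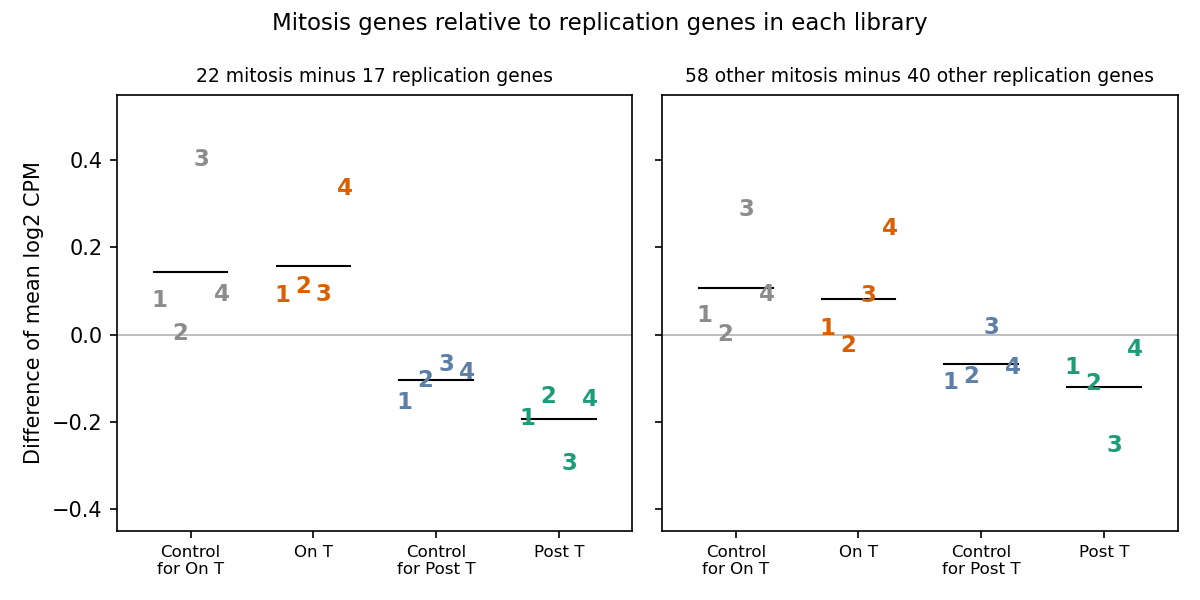
Difference between the mean log2 deviation of mitosis genes and that of replication genes in each library, for the 39 genes (left) and for other genes of the same classes (right); digits are replicate numbers and lines are group means (n = 4). On the left every younger library lies at or above 0.0023 and every older one at or below -0.070; on the right older control replicate 3 (0.017) lies above 3 younger libraries (-0.026, 0.0011 and 0.015).

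Further genes of both phases were examined from lists that were chosen with earlier results of these data known. Of 40 other replication genes (polymerase subunits, origin recognition, GINS and RFC complexes, checkpoint genes), none was called on testosterone, where 36 lay above 0 with a median of 0.14 and 2 had an unadjusted p under 0.05. After testosterone 1 of 40 was called, 38 lay below 0 and the median was -0.13. That gene was Chek1, a checkpoint kinase that guards stalled forks, which fell from 30.7, 12.2, 12.9 and 19.4 CPM in the older controls to 11.3, 10.9, 8.56 and 10.8 CPM (-0.85 ± 0.26, adjusted p = 0.0424). Its groups did not overlap. The call was lost in 13 of 23 alternative fits, and without older control replicate 1 the value was -0.49 (adjusted p = 0.189). On testosterone Chek1 was at 12.5, 12.2, 17 and 11.3 CPM against 12.7, 25.04, 15.2 and 16.9 CPM (-0.40 ± 0.26, adjusted p = 0.403). Rfc5, of the clamp loader, and the primase Prim1 had the lowest p of the list on testosterone (0.26 ± 0.10 and 0.30 ± 0.12, adjusted p = 0.136 and 0.138).
Of 58 other mitosis genes (kinetochore, condensin, kinesin and spindle checkpoint genes), none was called in either treatment comparison by edgeR, with 1 and 3 at an unadjusted p under 0.05. On testosterone 50 lay above 0 (median 0.10). The nearest to the threshold was Fam83d, a spindle protein, at 31.9, 21.6, 35.8 and 32.6 CPM against 20.2, 21.4, 26.9 and 22.2 CPM (0.43 ± 0.14, adjusted p = 0.0687). It was called in 5 of 24 alternative fits, among them DESeq2 (0.44, adjusted p = 0.0255), without On T replicate 2 (0.56, adjusted p = 0.00657) and without younger control replicate 3 (0.52, adjusted p = 0.0398). Without On T replicate 2 its difference of effects was called as well (-0.64, adjusted p = 0.0318). After testosterone 56 lay below 0 (median -0.20), led by Kif18a (-0.38 ± 0.18), Spc25 (-0.36 ± 0.16) and Nuf2 (-0.29 ± 0.13, adjusted p = 0.168). In the controls all 58 were lower in the older mice (median -0.33), 27 with an unadjusted p under 0.05 and none called. These genes and the 39 are known to be expressed together, so that the lists are not separate evidence.
Of 18 measured genes of the E2F, DREAM and pocket protein families, which repress or activate both phases, none was called by edgeR, with 2 at an unadjusted p under 0.05 in each treatment comparison. Tfdp2, a DNA-binding partner of E2F factors, had the highest value in each, 0.29 ± 0.10 on testosterone (adjusted p = 0.0745) and 0.30 ± 0.10 after it (adjusted p = 0.0546). It was called in 4 of 24 alternative fits on testosterone and in 9 of 23 after it. These include DESeq2 in both (adjusted p = 0.0287 and 0.0326) and leaving out older control replicate 2 in both (0.0430 and 0.0125). The others that left out 1 library were older control replicate 1 on testosterone, and after it younger control replicates 2 and 4, On T replicates 1, 3 and 4 and Post T replicate 3 (0.0226 to 0.0477). DESeq2 also called Tfdp1 after testosterone (-0.24, adjusted p = 0.0339).

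A list of 12 genes that act before those described here holds inhibitors of cyclin-dependent kinases, the D cyclins and their kinase partners. By edgeR's test 2 of the 12 rose and 4 fell on testosterone, against 4.24% of all genes called higher and 5.03% called lower. After it 1 rose and 4 fell, against 7.49% and 4.81% of all genes. Cdkn1a fell in both, with its values given under the flagged results below. Cdkn2b (p15) fell in both, with log2 fold changes of -3.53 and -3.505 (adjusted p = 8.95e-09 and 7.81e-09), and Cdkn1b (p27) fell as well, with -0.57 and -1.37 (adjusted p = 0.00622 and 9.64e-07). Cdkn1c (p57), another inhibitor, went the other way. It rose from 12.3, 17.3, 9.63 and 16.1 CPM in the younger controls to 29.9, 25.2, 18.6 and 30.3 CPM on testosterone (0.91, adjusted p = 0.0126), and from 17.1, 17.3, 18.04 and 20.2 CPM in the older controls to 213.5, 218.9, 341 and 164 CPM after it (3.69, adjusted p = 4.90e-08). The groups did not overlap in either comparison. The growth-phase cyclins Ccnd1 and Ccnd2 were not called, at 0.40 ± 0.22 and -0.061 ± 0.17 on testosterone and 0.33 ± 0.22 and 0.081 ± 0.17 after it. Inhibitors thus changed in both directions in ovaries in which none of the 39 genes was called.

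Lists of cell markers give the setting in which the 39 genes were measured. Of all genes, 4.24% were called higher and 5.03% lower on testosterone, and 7.49% and 4.81% after it. A single call in lists of this size is therefore not read as a change of the cell type. Granulosa markers had no call among 14 in either treatment comparison, with Fshr at -0.22 ± 0.30 and 0.034 ± 0.31 and Amh at 0.46 ± 0.21 and -0.10 ± 0.21. Without On T replicate 2, Amh was called on testosterone (0.65, adjusted p = 0.0362). Of 18 oocyte markers 1 rose on testosterone (Sohlh1) and none was called after it. Luteal markers fell for 7 of 10 in both comparisons. Macrophage markers rose for 4 and fell for 1 of 12 on testosterone and rose for 8 and fell for 1 after it, with summed levels of 4809 to 7284 CPM in Post T and 558.5 to 1227 CPM in its controls. Lymphocyte markers rose for 2 and 7 of 14, with summed levels of 68.1 to 99.3 CPM in Post T and 15.2 to 24.1 CPM in its controls. Theca markers rose for 1 and fell for 1 of 8 on testosterone, and rose for 2 and fell for 1 after it. Stromal markers rose for 3 and fell for 2 of 10, then rose for 1. Smooth muscle markers rose for 2 of 8 on testosterone and none was called after it. Endothelial markers rose for 1 of 10 in each comparison. Surface epithelium (10 genes) and erythroid markers (7 measured of 8) had no call, and 1 of 6 measured oviduct markers fell in each. Of these lists, 7 of 14 lymphocyte and 8 of 12 macrophage markers thus rose in Post T ovaries, in which 36 of 39 cell division genes lay below 0 without a call. The part of these lists in the levels of the 39 genes was not tested.

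Some counts are uncertain because of neighbouring or copied sequence. On the GENCODE annotation of GRCm38, exons of a gene on the other strand covered 29.3% of the exon bases of Kif20a (Cdc23), 22.8% of Ube2c (Tnnc2), 17.4% of Ccne2 (Ints8), 12.5% of Ccna2 (Exosc9), 8.70% of Mcm7 and 7.09% of Plk1. Whether strand was used in counting is not given in the sources used here. Stretches of 150 bases that recur unchanged in a copy elsewhere made up 12.1% of Mybl2 (Gm3320), 8.20% of Ccnb1 (pseudogenes) and 4.35% of Pcna (Pcna-ps2). For 28 of the 39 genes no such stretch was shared with another gene.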

How the data were processed

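Poly(A) RNA libraries of 16 mouse ovaries were made with a directional kit, per the labels. For read processing the submitters' processing notes list STAR 2.7.8a, RSEM 1.3.3, cutadapt 2.3 and FastQC 0.11.8 with build GRCm38, and give no order or role. Expected counts per gene, deposited by the authors without normalization, held whole numbers only when checked. TPM values, deposited by the authors, were scaled for gene length and library size and were used to compare genes. FPKM values of the same libraries were left aside because they repeat the TPM information. Which annotation release was used, and whether counting used strand, is not given in the sources used here.

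The group model used edgeR 4.0.16 under R 4.3.3 (filterByExpr with a minimum count of 10, TMM, 16 libraries in 1 fit, quasi-likelihood F test, Benjamini-Hochberg adjustment over 18833 of 55426 genes, threshold 0.05). All 39 genes passed this filter. Standard errors and 95% intervals follow from the fold change and its F statistic. CPM are TMM-scaled. With 3 counts as the floor, 1 library's floor was 0.057 to 0.113 CPM, which covers counting error only. Pairing of samples by replicate number was not shown, so the main fit has no block. Alternatives were RLE size factors, no filter, 1 CPM in 4 libraries, DESeq2 1.42.0, limma 3.58.1 on log2(TPM + 1), the 8 libraries compared, a replicate block and each library left out. The pipeline was tested on simulated data. Groups were taken from the sample titles.

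The members, the other gene lists and the markers were chosen with earlier results of these data known. All 39 genes were named whatever their values, with up to 4 genes of lowest p per treatment comparison from the other pathway lists. Ccnd1, Ccnd2, Cdkn1a, Cdkn1b, Amh, Fshr and Gdf9 were named whatever their values (Cdkn1a and Cdkn1b were also among the lowest p), and marker lists are given as counts. Other genes named were chosen after their values were seen. Positions came from GENCODE for GRCm38, and promoters from RefSeq on GRCm38.p6.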

Additional observations from a re-analysis of the deposited data

Results flagged for a closer look

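Libraries that stood apart from the other 3 of their group by Dixon's criterion at the 95% level were found in 10 of 156 group values of the 39 genes, where chance gives 7.8. Of these, 5 were older control replicate 1, for Cdc6 (12.7 CPM), Pcna (167 CPM), Rrm1 (88.5 CPM), Ccne1 (6.82 CPM) and Birc5 (29.2 CPM), each the highest of its group. On T replicate 3 stood apart for Cdc45 (21.7 CPM) and Mybl2 (27.3 CPM). In the younger controls the values were 121 CPM for Pcna in replicate 4, 28.8 CPM for Birc5 in replicate 3 and 40.3 CPM for Cenpf in replicate 1. Over all 284 group values tested, 21 stood apart and chance gives 14.2. The others were older control replicate 1 for Rfc5 (28.6 CPM), Prim1 (16.3 CPM), Orc6 (28.7 CPM), Dscc1 (6.20 CPM), Fam83d (22.6 CPM) and Cks2 (23.0 CPM), On T replicate 3 for Tk1 (26.2 CPM), Tfdp1 (101.1 CPM) and Cdkn1b (94.2 CPM), and younger control replicate 2 for Orc6 (22.6 CPM) and Cdkn1b (195.9 CPM).

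The effect of testosterone differed between the 2 cohorts for 3 inhibitors of cyclin-dependent kinases by edgeR's test of the difference itself (effect after testosterone minus effect on it). The difference was 1.85 for Cdkn1a (adjusted p = 0.0456), where the fold changes were -3.14 on testosterone and -1.29 after it. The Cdkn1a call was lost in 14 of 22 alternative fits, 12 of them among the 16 that left out 1 library, where the value was 1.63 to 2.21 (adjusted p = 0.0133 to 0.0929); it was kept without younger control replicates 1 or 3, On T replicate 1 or older control replicate 4. Its fold change after testosterone was no longer called by limma (adjusted p = 0.0573) or without older control replicate 4 (-0.93, adjusted p = 0.0907), Post T replicate 2 (-1.20, adjusted p = 0.0585) or Post T replicate 3 (-1.25, adjusted p = 0.0561). The difference was -0.80 for Cdkn1b (adjusted p = 0.0152), from -0.57 and -1.37. It was 2.77 for Cdkn1c (adjusted p = 0.000508), from 0.91 and 3.69.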

How the results depend on the processing

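No direction of a called value reversed under the alternatives run. Among the 39 genes only Mcm7 was called under any of them, as given above, which makes 0 to 1 replication genes called higher on testosterone when single libraries were left out. Leaving out single libraries also moved the number above 0 on testosterone, from 5 to 17 of 17 replication and from 9 to 22 of 22 mitosis genes, and the number below 0 after it, from 8 to 15 of 17 replication genes. The count of mitosis genes with an unadjusted p under 0.05 between the controls ran from 4 to 19. Over all genes, calls on testosterone ran from 1081 to 2071 (470 to 981 higher), with the lowest counts without younger control replicates 2 or 4, and between the controls from 0 to 9 (0 to 5 higher). With limma on log2(TPM + 1), 1130 genes were called on testosterone (490 higher). DESeq2 called 999 for the difference of effects and 179 between the controls (135 higher), and without a filter 20 were called there (17 higher). The cause of these changes was not tested.

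With the replicate number as a block, 1676, 2274, 567 and 0 genes were called on testosterone, after it, for the difference and between the controls, and 0 of the 39. The pairing was not shown, since the correlation of same-numbered deviations ran from -0.019 to 0.13 on testosterone and from 0.042 to 0.233 after it. The block ended the call of Chek1 (-0.83, adjusted p = 0.074). With 4 libraries per group, small changes of the 39 genes could be missed. An interval that excluded 0 did not suffice for a call, as for Cdk2 on testosterone and 15 mitosis genes between the controls.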
